A study of Homo sapiens with 5 samples.

Results

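The RNAs described here are small transcripts of RNA polymerase III, measured in DAOY cells, an established human cell line of SHH medulloblastoma. The 10 members were RN7SL1, RN7SL2, RN7SK, RMRP, RPPH1, RNY1, RNY3, RNY4, VTRNA1-1 and RNA5S9. They were picked by their gene names in the deposited table of 60504 genes, and the set was chosen from measured values of the same contrast, so their differences between groups are given as a description with no test. The 10 names stand on 13 lines of the table, because RN7SL1, RMRP and RPPH1 each appear under 2 Ensembl identifiers.

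RNA polymerase III makes short untranslated RNAs that mostly work as the core of an RNA-protein particle. 7SL RNA is the scaffold of the signal recognition particle (SRP), which brings ribosomes that make secreted and membrane proteins to the endoplasmic reticulum, and 7SK RNA holds the transcription elongation kinase CDK9 in an inactive complex. RMRP and RPPH1 are the RNA subunits of RNase MRP, which cleaves precursor ribosomal RNA, and of RNase P, which trims the 5′ ends of tRNAs, while Y RNAs bind the Ro protein, vault RNAs belong to the vault particle and 5S rRNA is part of the large ribosomal subunit.

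DAOY cells were transfected with siRNA at 20 nM for 48 h with Lipofectamine RNAiMAX, and total RNA was sequenced. The control group received a non-targeting siRNA (si-NC, 2 libraries), and the other group received siRNA against circ_63706 (si-circ_63706, 3 libraries), a circular RNA that the study examined for its part in SHH medulloblastoma. Which of the study's siRNA sequences each library received is not given in the sources used here, and nothing says that the replicates were separate cultures, so the spread between them may be technical. The table lists genes and not circular RNAs, so the targeted RNA could not be checked in these libraries.

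Values were TPM, a relative abundance of transcripts, which scale for gene length and sum to the same total in every library, so the rise of 1 abundant RNA lowers the others. The table gives no read counts, so the depth is unknown and no counting intervals could be set. Between 29253 and 29748 genes were above 0 in the si-NC libraries and between 33905 and 34347 in the si-circ_63706 libraries, and the share of snRNA genes was 8.82% and 8.97% against 11.1% to 14.0%. The part of these differences in the results below was not tested. Of 10 SHH medulloblastoma genes, 8 had a mean of at least 1 TPM, with a summed level of 41.6 to 43.1 TPM in si-NC and 35.0 to 36.4 TPM in si-circ_63706. Of 12 genes of blood, endothelial, muscle, liver and neuronal cells, 1 had a mean of at least 1 TPM, none was at 0 in every library, and the highest value was 1.73 TPM, with a summed level of 1.99 to 2.07 TPM in si-NC and 2.09 to 2.57 TPM in si-circ_63706. In RNA from bulk cells, fewer cells of a type and less RNA per cell cannot be told apart.

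The 7SL genes take the largest share of the set, and their sequences are almost the same. RN7SL1 lies at chr14:49586580-49586878 on the plus strand and RN7SL2 at chr14:49862550-49862849 on the minus strand (GRCh38, GENCODE 29), and each is a single exon. The annotated RNAs differ at 4 bases, and RN7SL2 is longer by 1 base at its end. The longest stretch with no difference ran over 205 bases. Over the 299 bases compared, 98.7% were identical. Another 7SL gene, RN7SL3, at chr14:49853616-49853914 on the minus strand, differed from RN7SL1 at 7 positions.

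The name RN7SL2 in the table belongs to another identifier, ENSG00000280102, which is not in GENCODE 29 and was at 0 TPM in every library. The RN7SL2 locus, ENSG00000274012, was deposited under the family name Metazoa_SRP and was the second most abundant gene of the table. The same holds for RN7SL3, whose name stands on a line at 0 while its locus, ENSG00000278771, is called Metazoa_SRP. Both loci were therefore followed by their identifiers, a choice made after the data were seen.

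RN7SL1 (ENSG00000276168) was at 256019 and 253664 TPM in the si-NC libraries and at 281108, 292230 and 291309 TPM in the si-circ_63706 libraries. Every si-circ_63706 library was above both controls. Its mean was 254842 ± 1665 TPM (SD, n = 2) against 288215 ± 6173 TPM (SD, n = 3). The RN7SL2 locus went the other way, with 166568 and 165739 TPM in si-NC and 119444, 128093 and 121063 TPM in si-circ_63706. There the groups did not overlap either, and the si-circ_63706 mean was 73.9% of the control mean. The less abundant RN7SL3 locus was at 10687 and 10611 TPM in si-NC and at 13045, 13737 and 13883 TPM in si-circ_63706, higher in each si-circ_63706 library.

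Within a library, the ratio of RN7SL2 to RN7SL1 does not depend on the total. It was 0.651 and 0.653 in si-NC and 0.425, 0.438 and 0.416 in si-circ_63706, a gap far wider than the spread within either group. Added together, the RN7SL1 and RN7SL2 loci made up 42.3% and 41.9% of all TPM in si-NC and 40.1%, 42.0% and 41.2% in si-circ_63706, and these ranges overlap. All 909 loci with a 7SL name summed to 43.6% ± 0.19 (SD, n = 2) in si-NC and 43.2% ± 1.08 (SD, n = 3) in si-circ_63706, also with overlap. So the division among near-identical loci differed between groups, and no difference in the 7SL total larger than the spread was seen.

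**Figure D1:**
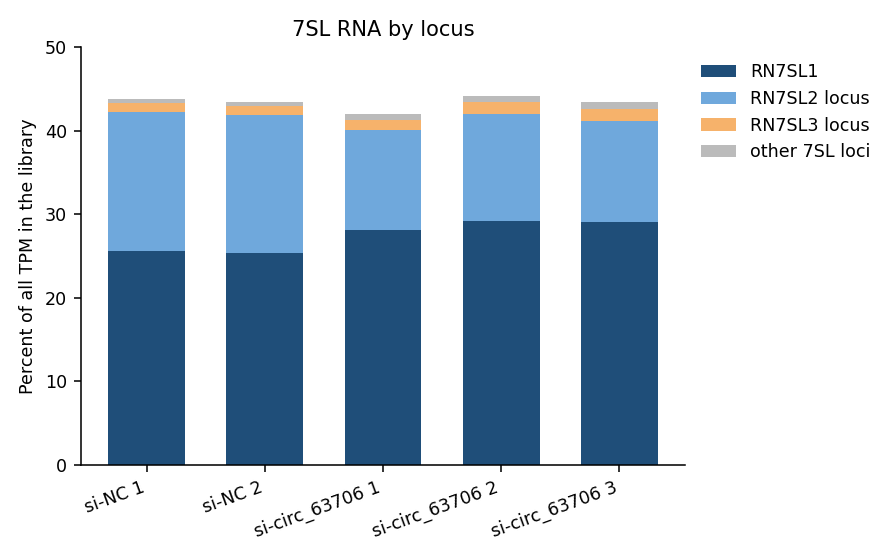
Stacked bars give the percent of all TPM that RN7SL1, the RN7SL2 locus, the RN7SL3 locus and all other 7SL loci took in each of the 5 libraries. The RN7SL1 section is taller and the RN7SL2 section shorter in the 3 si-circ_63706 libraries, while the height of the whole bar stays between 42.1% and 44.2%.

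How reads were divided among these loci rests on short stretches. Of the 250 windows of 50 bases in RN7SL1, 39 occur in no transcript of another locus in GENCODE 29 (15.6%), and of the 251 in the RN7SL2 locus, 34 are unique (13.5%). In windows of 100 bases the shares were 25.5% and 17.9%. RN7SL4P, a pseudogene that shares 133 bases in a row with RN7SL1, was at 4069 and 4629 TPM in si-NC and at 6574, 7423 and 7355 TPM in si-circ_63706. Its level and that of RN7SL5P, at 257 and 261 TPM against 340, 346 and 360 TPM, were higher in every si-circ_63706 library, as for RN7SL1. The second identifier of RN7SL1 (ENSG00000283029), which covers the same bases plus 1, was at 15.4 and 17.2 TPM in si-NC and at 0, 16.95 and 50.9 TPM in si-circ_63706, with overlap. RPS29, a ribosomal protein gene on the opposite strand at RN7SL1, was at 404 to 414 TPM in si-NC and 361 to 372 TPM in si-circ_63706. Reads of the RN7SL1 identifiers cannot be told apart over the bases they share. The overlap with RPS29 is one of whole gene spans, and its exons were not compared with RN7SL1. The strand setting of the counting is not given in the sources used here, so whether reads of RPS29 and RN7SL1 were kept apart is not known. The share of ambiguous reads was not tested.

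**Figure D2:**
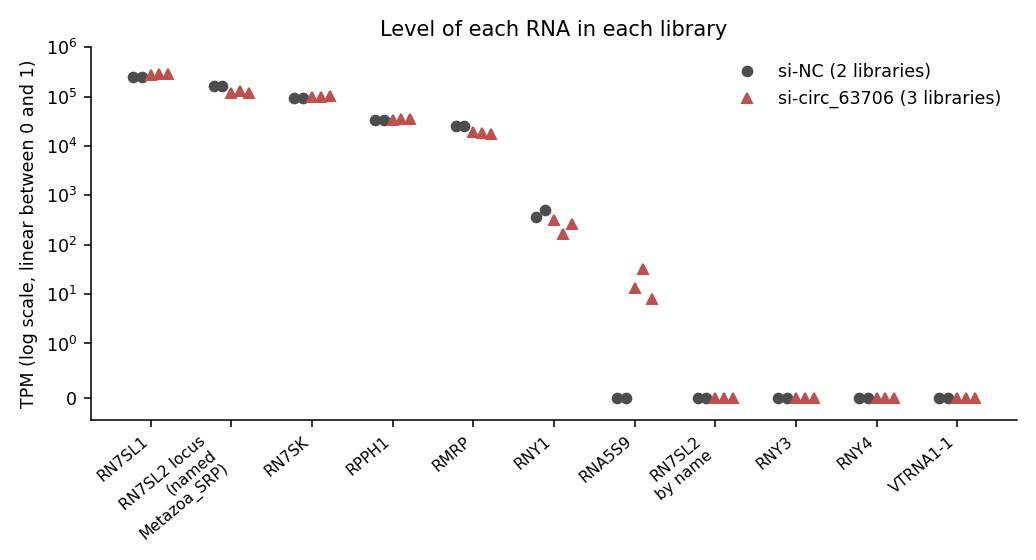
The vertical axis gives TPM on a log scale that is linear between 0 and 1, and each point is 1 library, with circles for si-NC and triangles for si-circ_63706. Points of RN7SL1, RMRP and RPPH1 are sums over the lines of each name. The RNAs span from 292247 TPM for RN7SL1 to 0 for the line named RN7SL2, RNY3, RNY4 and VTRNA1-1.

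RN7SK (ENSG00000202198, chr6:52995620-52995950, plus strand) ranked after the 7SL loci RN7SL1 and RN7SL2 in level. Its level was 94422 and 94007 TPM in si-NC and 98652, 97642 and 102713 TPM in si-circ_63706. All 3 si-circ_63706 libraries were above the controls, and their mean was 1.06 times the control mean. The difference on the log2(TPM + 1) scale was 0.08. Of its 282 windows of 50 bases, 23.4% were unique, since 14 other genes carry parts of it. RN7SKP71, the pseudogene with the highest level, was at 217 and 222 TPM in si-NC and at 291, 257 and 288 TPM in si-circ_63706, while RN7SKP203 was at 124 ± 4.89 TPM (SD, n = 2) against 130 ± 10.3 TPM (SD, n = 3) with overlap.

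RPPH1 and RMRP, the RNAs of the related RNases P and MRP, parted. RPPH1 (ENSG00000277209, chr14:20343075-20343407, minus strand) was at 33403 and 33317 TPM in si-NC and at 34404, 35695 and 35401 TPM in si-circ_63706. RMRP (ENSG00000277027, chr9:35657754-35658017, minus strand) was at 25198 and 24394 TPM in si-NC and at 18707, 17902 and 17611 TPM in si-circ_63706. RMRP was lower in every si-circ_63706 library, at 72.9% of the control mean. Unlike for 7SL, all windows of 50 bases in both genes are unique (215 in RMRP and 284 in RPPH1), so no transcript annotated elsewhere holds one of them.

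The ratio of RMRP to RPPH1 was 0.754 and 0.732 in si-NC and 0.544, 0.502 and 0.497 in si-circ_63706, with no overlap. By contrast, the ratio of RPPH1 to RN7SK was 0.354 and 0.354 against 0.349, 0.366 and 0.345, where the groups overlap. Against RN7SL1 both were lower with no overlap, RPPH1 at a ratio of 0.130 and 0.131 in si-NC and 0.122 in each si-circ_63706 library, and RN7SK at 0.369 and 0.371 against 0.351, 0.334 and 0.353. Against RN7SK, RMRP stood at a ratio of 0.267 and 0.259 in si-NC and of 0.190, 0.183 and 0.171 in si-circ_63706, again with no overlap.

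**Figure D3:**
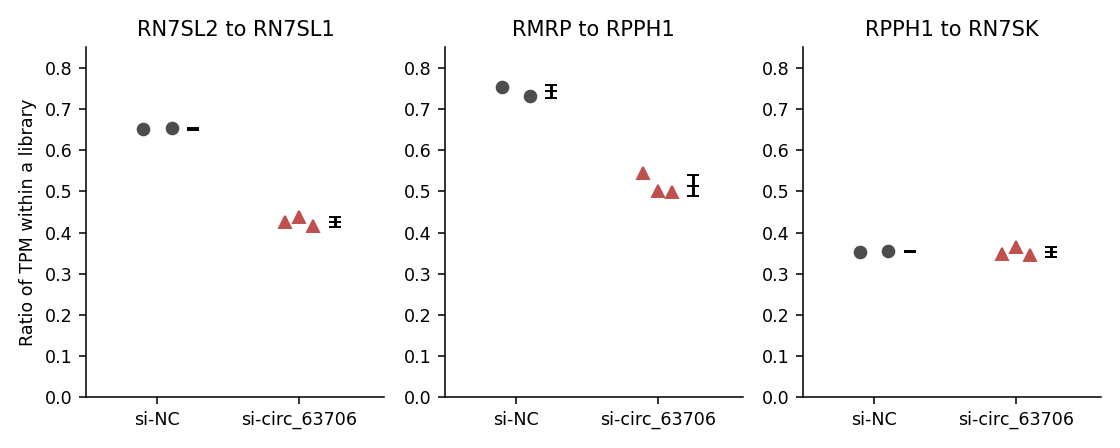
Each panel shows the ratio of the TPM of a pair of RNAs within a library, with points for libraries and black marks for the mean and SD of each group (n = 2 for si-NC, n = 3 for si-circ_63706). The ratios of RN7SL2 to RN7SL1 and of RMRP to RPPH1 are lower in si-circ_63706 with no overlap, and that of RPPH1 to RN7SK overlaps.

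RMRP is annotated a second time as ENSG00000269900, a lincRNA at chr9:35657751-35658018 on the minus strand. Its sequence is shown because it holds the whole RMRP RNA, and the capitals mark the 1 base before and the 3 bases after it that the shorter annotation lacks.
RMRP, longer annotation: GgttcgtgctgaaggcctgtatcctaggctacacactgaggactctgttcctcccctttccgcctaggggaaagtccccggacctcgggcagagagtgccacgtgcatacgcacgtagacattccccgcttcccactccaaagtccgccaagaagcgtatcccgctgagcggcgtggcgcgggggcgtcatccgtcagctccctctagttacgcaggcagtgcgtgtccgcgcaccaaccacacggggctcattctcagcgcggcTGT
This longer form was at 727 and 616 TPM in si-NC and at 312, 327 and 257 TPM in si-circ_63706. It was lower in every si-circ_63706 library, at 44.4% of the control mean. RPPH1 also has a longer overlapping annotation (ENSG00000259001, 638 nt), at 176 and 186 TPM in si-NC and at 93.3, 98.1 and 99.2 TPM in si-circ_63706, so it was lower where RPPH1 itself was slightly higher. PARP2 lies on the opposite strand at this longer annotation, at 29.7 and 31.8 TPM in si-NC and at 23.3 to 23.8 TPM in si-circ_63706.

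The Y RNAs, the vault RNAs and 5S rRNA are shorter, and the sequences of RNY1, RNY4 and the vault RNAs are shown because length sets them apart from the RNAs above. In these Y RNAs the capitals mark the run of T at the 3′ end, where RNA polymerase III stops, and in the vault RNAs they mark that run in VTRNA1-1 and the letters GTTCGANNC, a form of the B box, an internal promoter element of RNA polymerase III. VTRNA2-1 is no member and is given for comparison with VTRNA1-1.
RNY1: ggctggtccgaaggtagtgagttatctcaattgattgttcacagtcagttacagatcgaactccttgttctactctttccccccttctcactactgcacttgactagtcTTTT
RNY4: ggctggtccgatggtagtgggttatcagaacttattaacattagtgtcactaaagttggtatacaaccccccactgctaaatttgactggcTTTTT
VTRNA1-1: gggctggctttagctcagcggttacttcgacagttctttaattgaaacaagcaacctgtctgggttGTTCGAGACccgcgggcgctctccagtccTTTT
VTRNA2-1: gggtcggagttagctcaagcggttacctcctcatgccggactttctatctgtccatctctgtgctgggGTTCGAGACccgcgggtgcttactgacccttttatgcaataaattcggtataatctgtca
The 3 Y RNAs begin with the same 11 bases. Their genes lie close together on chromosome 7, RNY1 at chr7:148987136-148987248 on the minus strand, RNY3 at chr7:148983755-148983856 and RNY4 at chr7:148963315-148963410 on the plus strand. VTRNA1-1 lies at chr5:140711275-140711373 on the plus strand and VTRNA2-1 at chr5:136080470-136080597 on the minus strand. GTTCGANNC was searched on both strands and was found on the RNA strand of both vault RNAs and of none of the other members. Of 16464 GENCODE 29 transcripts of 80 to 350 nt, 0.541% hold it on their own strand and 0.334% on the other, and 4.09% end in TTTT. A match is a description of letters only.

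RNY1, of 113 nt, was the one Y RNA gene among the members above 0. It was at 367 and 506 TPM in si-NC and at 319, 167 and 260 TPM in si-circ_63706. The si-circ_63706 libraries were all lower, with a mean 56.9% of that of si-NC, though the highest of them was close to the lower control and the controls themselves differed widely (436 ± 97.9 TPM, SD, n = 2, against 248 ± 76.7 TPM, SD, n = 3). Of 836 other loci with a Y RNA name, 6 were above 0 in any library, and their sum was at 0 in 2 of the 5 libraries.

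RNY3 (102 nt), RNY4 (96 nt) and VTRNA1-1 (99 nt) were at 0 in all 5 libraries. So was nearly every gene of their size: of 1059 small RNA genes of 90 to 102 nt, 1058 were at 0 in every library, and of 1548 genes of 60 to 89 nt, 1547 were. The share at 0 was 96.0% for genes of 103 to 129 nt, 68.8% for 130 to 199 nt and 41.8% for 200 to 350 nt. These 3 zeros therefore say nothing of whether the RNAs were present in DAOY cells, and no difference between groups could be seen. VTRNA1-2 and VTRNA1-3, of 89 nt, were also at 0. VTRNA2-1, an RNA related to vault RNAs, is annotated at 128 nt. Its sequence holds TTTT before the annotated end, so the RNA may be shorter. With an unknown counting error, VTRNA2-1 was at 17.1 and 14.1 TPM in si-NC and at 7.61, 5.28 and 4.54 TPM in si-circ_63706. It was lower with a log2 fold change of -1.31 ± 0.19 (SE; adjusted p = 0.0037, limma with Benjamini-Hochberg adjustment over 12710 genes), and leaving out any 1 library kept the adjusted p between 0.0030 and 0.034.

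5S rRNA is coded by a cluster of nearly identical genes on chromosome 1, and the member RNA5S9 (ENSG00000201321, chr1:228628148-228628266, minus strand) differs from the rest at 1 base. The other 16 genes from RNA5S1 to RNA5S17 share 1 sequence. In si-NC, RNA5S9 had 0 TPM in each library, and it was at 13.1, 32.3 and 7.83 TPM in si-circ_63706. Each of the other 16 genes was at 0.96 TPM in si-NC replicate 2, at 0.70 TPM in si-circ_63706 replicate 1 and at 0 in the other libraries. Summed over all 17 genes, the level was 0 and 15.4 TPM in si-NC and 24.3, 32.3 and 7.83 TPM in si-circ_63706, and the groups overlap. All 531 loci with a 5S name gave 2.55 and 48.9 TPM in si-NC and 76.7, 73.2 and 15.1 TPM in si-circ_63706, which overlap too. The absence of RNA5S9 from si-NC replicate 2 is thus not an absence of 5S reads, since that library was above 0 at the other 16 genes. In si-NC replicate 1 all 17 genes were at 0, and all 531 loci together gave 2.55 TPM. No fold is given against a group listed at 0.

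**Figure D4:**
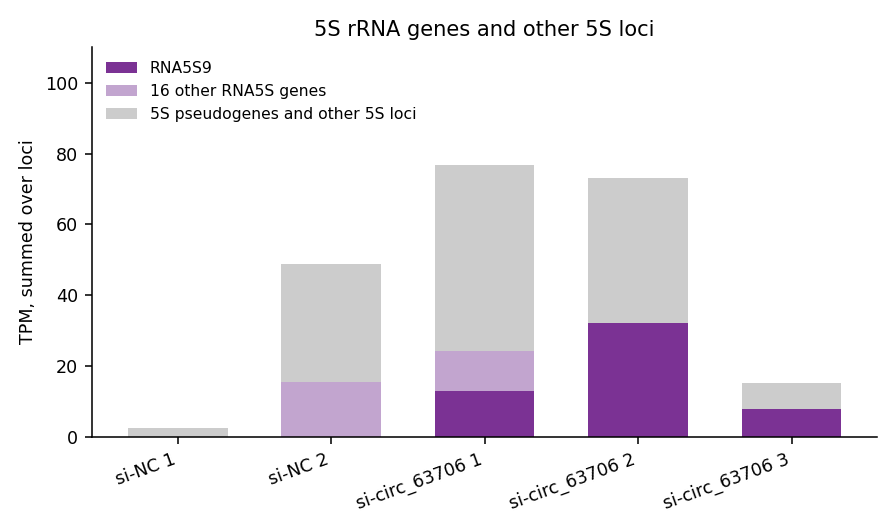
Stacked bars give the TPM of RNA5S9, of the 16 other RNA5S genes together and of all other 5S loci in each library. RNA5S9 appears in the 3 si-circ_63706 libraries alone, while the whole bar runs from 2.55 to 76.7 TPM and overlaps between groups.

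By name, 4 of the 10 members (RN7SL1, RN7SK, RPPH1 and RNA5S9) were higher in every si-circ_63706 library than in both controls and 2 (RMRP and RNY1) were lower, and 4 were at 0 throughout. Among 12710 genes with a mean of at least 1 TPM, 8.93% did not overlap with si-circ_63706 higher and 55.2% with si-circ_63706 lower, and nothing is read from the members' counts, since the contrast chose them. The median log2 fold change of these genes was -0.16. Libraries were also centred, each on the median log2 ratio of its genes with a mean of at least 10 TPM. The differences were then 0.34 for RN7SL1, 0.24 for RN7SK, 0.23 for RPPH1, -0.28 for the RN7SL2 locus, -0.30 for RMRP and -0.68 for RNY1. No direction among these 6 changed with the scaling, but RN7SK and RPPH1 stood only 0.08 above the controls without it.

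The order of levels was the same in all 5 libraries for the 5 most abundant members: RN7SL1, the RN7SL2 locus, RN7SK, RPPH1 and RMRP, which were also the 5 highest genes of the table. Their ranges did not overlap. Together the lines with a member's name took 40.9% ± 0.26 of all TPM in si-NC (SD, n = 2) and 44.2% ± 0.73 in si-circ_63706 (SD, n = 3). With the RN7SL2 locus added this turned round, to 57.5% ± 0.31 against 56.5% ± 1.02, where the highest si-circ_63706 library and the lower control both stood at 57.2%. With all loci of the 7 families it was 59.0% ± 0.28 against 58.6% ± 1.11, with overlap.

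Of other RNA polymerase III genes, RNU6ATAC, the U6-like RNA of the minor spliceosome, was at 68.5 and 85.4 TPM in si-NC and at 125.6, 69.4 and 72.5 TPM in si-circ_63706 (log2 fold change 0.17 ± 0.26 SE, adjusted p = 0.63, limma), with overlap. BCYRN1, a neuronal RNA related to 7SL, was between 0.90 and 1.05 TPM in every library. The genes most like RN7SL1 in their profile over the 5 libraries, among 4853 candidates with a mean of at least 10 TPM, were YBX3, NRBP1 and BRWD1, with a root mean square distance of 0.0090, 0.0103 and 0.0131 on the centred log2(TPM + 1) scale. For RN7SK they were ARF3, FAM208B and NGFRAP1, at 0.0074, 0.0076 and 0.0085.

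The proteins that make these RNAs or work with them are coded by 78 genes in 7 lists, of which 77 had a mean of at least 1 TPM. With limma and Benjamini-Hochberg adjustment over all genes tested, 30 of the 77 passed the threshold of 0.05 as lower and 2 as higher. That is 39.0% lower and 2.60% higher, beside 35.4% and 4.16% of all genes tested. Their median log2 fold change was -0.18, beside -0.16. When each library was centred, 10 were lower and 10 higher, beside 13.7% and 13.1% of all genes, so the split of the calls changed with the scaling. Leaving out si-NC replicate 1 left 12 lower and 0 higher in limma (26 and 1 at an unadjusted p under 0.05), and leaving out si-NC replicate 2 left 11 lower and 1 higher.

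Of the 18 subunit genes of RNA polymerase III, 8 were lower and 10 were not called, beside 35.4% of all genes tested as lower. When libraries were centred, 3 were lower and 2 higher, the latter POLR3B and POLR3G (adjusted p = 0.042 and 0.045, limma). Their groups overlap in TPM without centring, and both are named here after their values were seen. POLR3GL, which codes for 1 of a pair of alternative subunits, fell from 5.66 ± 0.23 TPM in si-NC (SD, n = 2) to 1.85 ± 0.30 TPM in si-circ_63706 (SD, n = 3), with a log2 fold change of -1.23 ± 0.10 (SE; adjusted p = 0.0011, limma). The shared polymerase subunits POLR2E and POLR2F were at 69.9% and 75.6% of the control mean (adjusted p = 0.0015 and 0.0029, limma). Of 19 genes of its transcription factors and regulators, 7 were lower (2 lower and 1 higher when centred), among them BRF1, a part of TFIIIB, at 61.6% of the control mean (adjusted p = 0.0048, limma), SNAPC2, of the complex that binds the promoters of genes such as RN7SK, at 73.1% (adjusted p = 0.0026, limma), and MAF1, a repressor of the polymerase, at 80.6% (adjusted p = 0.0070, limma). The call of MAF1 was lost when libraries were centred (adjusted p = 0.061).

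The SRP list, of proteins that bind 7SL RNA or receive the particle, held both of the genes called higher without centring. That is 2 of 8 genes, beside 4.16% of all genes tested. When libraries were centred, 3 of the 8 were higher and 0 lower, beside 13.1% and 13.7% of all genes. Over all lists 10 genes were higher when centred. SRP14, which binds the Alu domain of 7SL, rose from 221 ± 6.07 TPM in si-NC (SD, n = 2) to 266 ± 2.09 TPM in si-circ_63706 (SD, n = 3), with a log2 fold change of 0.27 ± 0.04 (SE; adjusted p = 0.0045, limma). SRP19, which helps to assemble the particle, rose from 75.8 ± 1.99 to 87.7 ± 4.65 TPM (adjusted p = 0.029, limma). The call of SRP14 was lost without si-NC replicate 1 (adjusted p = 0.052, limma), and that of SRP19 without either si-NC library and without si-circ_63706 replicate 2 or 3 (adjusted p from 0.056 to 0.16, limma). Of the 8 genes 2 were lower, beside 35.4% of all genes tested. Among them was SRPRB, a subunit of the receptor, at 86.8% (adjusted p = 0.044, limma). The call of SRPRB was lost when libraries were centred (adjusted p = 0.58, limma).

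For 7SK, 4 of 7 genes were lower, again beside 35.4% of all genes. When libraries were centred, 2 were lower and 1 was higher, LARP7 (adjusted p = 0.041, limma), a protein that binds the 3′ end of 7SK. Its groups overlap in TPM without centring, and it is also named after its value was seen. MEPCE, which caps the RNA, was at 69.1% of the control mean (adjusted p = 0.0014, limma), CDK9 at 80.8% (adjusted p = 0.0084, limma) and its cyclin CCNT1 at 79.2% (adjusted p = 0.011, limma). The call of CCNT1 was lost when libraries were centred (adjusted p = 0.072). Of the 10 tested protein genes of RNases P and MRP, 5 were lower, beside 35.4% of all genes tested. Among them were RPP25L at 76.1%, POP7 at 83.4% and POP5 at 79.8% (adjusted p = 0.0070, 0.018 and 0.020, limma). All 3 calls were lost when libraries were centred (adjusted p = 0.075, 0.14 and 0.097, limma). In that setting 0 of the 10 were lower and 0 higher, beside 13.7% and 13.1% of all genes. RNases P and MRP share most of their proteins.

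Of 10 genes for Y RNA, La, vault and RNA processing proteins, 3 were lower (2 lower and 2 higher when centred). These were RO60, the Ro protein that binds Y RNAs, at 81.0% of the control mean, PARP4, of the vault, at 77.1%, and PARN, which trims the 3′ ends of noncoding RNAs, at 77.0% (adjusted p = 0.023, 0.0040 and 0.011, limma). The call of RO60 was lost when libraries were centred (adjusted p = 0.17). In the 5S list 1 of 5 genes was lower, beside 35.4% of all genes tested. This was RRS1, which loads the 5S particle into the ribosome, at 70.9% (adjusted p = 0.0024, limma). When libraries were centred, 1 was lower and 1 higher, RPL11 (adjusted p = 0.0031, limma), named after its value was seen. RPL11 was not called without centring (adjusted p = 0.17, limma). Its mean was 1284 ± 0.83 TPM in si-NC (SD, n = 2) and 1363 ± 35.4 TPM in si-circ_63706 (SD, n = 3), with no overlap. Without si-NC replicate 1 or 2 many of these calls were lost, with 12 and 11 lower genes left over all lists.

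**Figure D5:**
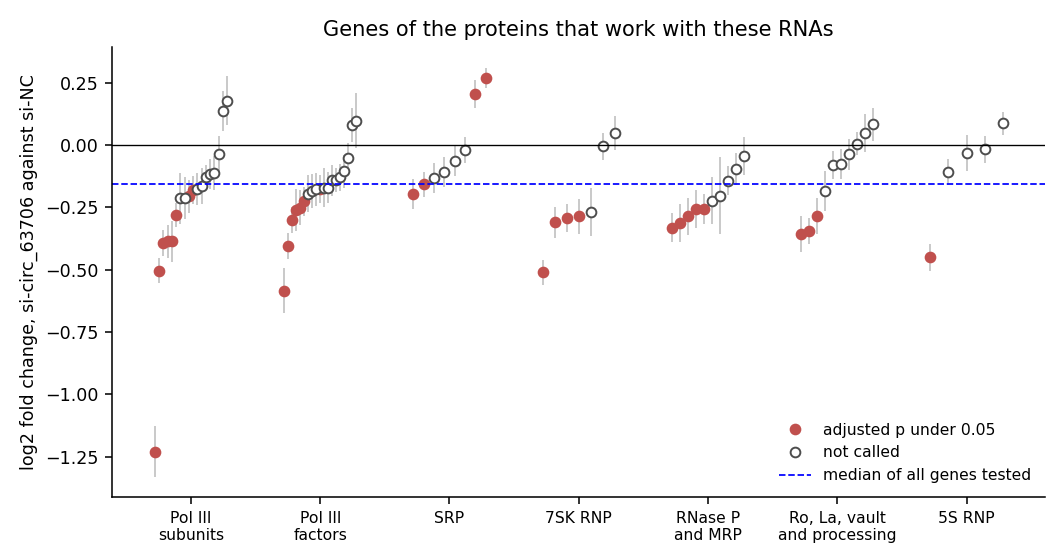
Each point is the log2 fold change of 1 gene in si-circ_63706 against si-NC, with its standard error, filled where the adjusted p was under 0.05. The dashed line is the median of all genes tested, -0.16, and 66 of the 77 points lie below 0, with SRP14 and SRP19 as the 2 filled points above 0.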

How the data were processed

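Total RNA of DAOY cells was sequenced by the study in 3 si-circ_63706 and 2 si-NC libraries. TPM per gene were computed and deposited by the authors in 1 table, rounded to 2 decimals. The submitters' processing notes name cutadapt 2.3, STAR 2.7.0d, RSEM 1.3.1 and hg38; annotation release and strand setting are not given in the sources used here. RSEM divides reads that fit several loci by estimation.

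The members and lists were chosen with earlier results of these data known. Libraries were grouped by their labels. Shares, ratios and differences of mean log2(TPM + 1) were computed per library with no test for the members. Genes averaging at least 1 TPM were tested with limma 3.58.1 in R 4.3.3 (trended moderation, two-sided, Benjamini-Hochberg, 0.05). The fit was also run on simulated data with independent noise, which does not bear on the choice of scaling. Partner genes named are up to 3 per list with the lowest adjusted p and no overlap. Positions and sequences came from GENCODE 29 (GRCh38), which holds 12 of the 13 member identifiers. Python 3.11.15 was used. Alternatives were other pseudocounts, minima and totals, centring, moderation without a trend, a replicate block and leaving out each library. Some sequences are not reported here.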

Additional observations from a re-analysis of the deposited data

How the results depend on the processing

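The summed share of the lines with a member's name was 3.33 percentage points higher in si-circ_63706, and between 3.03 and 3.74 when each library was left out. With the RN7SL2 locus added by its identifier, chosen after seeing the data, it was -0.9997, and with all other loci of the families -0.41, so its sign rests on which 7SL loci are counted. The difference of the second RN7SL1 identifier was -0.82 as a difference of mean log2(TPM + 1), opposite in sign to the means (16.3 TPM in si-NC, 22.6 TPM in si-circ_63706, where 1 library is at 0), 0.82 without si-circ_63706 replicate 1 and -2.03 without si-circ_63706 replicate 3. Partner genes called higher and lower numbered 2 and 30. They numbered 10 and 10 when libraries were centred, 7 and 13 at an equal protein-coding total, and 1 and 14 with no minimum TPM. Higher genes numbered 1 with the member families left out of the total and 1 without a trend. Leaving out each library gave 0 to 2 higher and 11 to 30 lower. Groups shared only replicate numbers 1 and 2, and deviations of same-numbered libraries from their group means correlated at 0.014 and 0.026 across genes. The deviations of the 2 si-NC libraries mirror each other, so these values cannot decide whether the numbers pair the libraries. With the replicate block, 1 was higher and 26 lower. Beyond these alternatives the cause of the changes was not tested. With TPM alone, the counting error of RNAs near 0, such as RNA5S9, is unknown.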
